A study of Sus scrofa with 20 samples.

Results

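The genes described here are those of the proteasome and of the ubiquitin enzymes that feed it, measured in the kidneys of pigs after neurologic death (ND) and in controls. Members were chosen by symbol: PSM followed by A to G, UBE2, UBA followed by a digit, USP, UCHL, CUL followed by a digit, FBXO and FBXL, leaving out USP2 and FBXO32. This gave 102 of the 6765 genes with a single symbol, each read from its brightest probe set over all 20 arrays. They comprised 29 constitutive proteasome subunits, 4 immunoproteasome genes, 7 assembly factors and other regulators, 2 activating enzymes (E1), 24 conjugating enzymes (E2), 17 deubiquitinases, 3 cullins and 16 F-box proteins. The immunoproteasome subunit PSMB9 had no probe set with a single symbol in the annotation used here.

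Pigs were randomized to 2 groups of 10. Controls received a burr hole, catheters and anaesthesia. Animals of the ND group received this preparation too, followed by inflation of a subdural balloon to bring about ND. All animals were ventilated for 6 h, with 0.9% saline boluses of 2 cc/kg to hold the mean arterial pressure above 35 mmHg, and kidney tissue was then snap frozen. No strain, age or sex is given in the labels used here. One biotin-labelled cRNA per animal number was hybridised to a 1-colour Affymetrix porcine array. Each animal is referred to by its group and its number, as in ND_47.

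The proteasome degrades proteins that carry chains of ubiquitin. Its 20S core is a barrel of alpha and beta rings whose beta subunits cut the protein, and its 19S regulator recognises, unfolds and feeds in the substrate. Interferons and other inflammatory signals replace the cutting subunits by the immunoproteasome subunits PSMB8, PSMB9 and PSMB10 and induce the activator PA28 (PSME1 and PSME2), which favours peptides for presentation on MHC class I. Ubiquitin is attached by an E1, E2 and E3 cascade, in which cullins and F-box proteins form large E3 ligases, and is removed by deubiquitinases such as the USP and UCHL families. In the kidney, tubule cells rely on this system for the turnover of transporters and damaged proteins.

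Levels are given as log2 signals, and a difference is the ND mean less the control mean of these. Precision is limited by the number of arrays, and array medians ran from 5.09 to 5.35. Tests are limma's, adjusted by the Benjamini-Hochberg method for the 23999 probe sets on the array. "Rose" and "fell" are used for an adjusted p under 0.05. Of 4 measured proximal tubule markers, AQP1 (13.00 in ND, 13.02 in controls) and LRP2 (13.60 and 13.35) did not pass. SLC2A2 fell by 1.82 (adjusted p = 0.0104). HNF4A fell by 0.84 (adjusted p = 0.0174), with all 10 ND animals below every control. Of 4 fat and adrenal markers, ADIPOQ and CYP17A1 read at background, below 2.79, on all arrays, and CHGA was just above it (2.85 in ND, 2.91 in controls). FABP4, which endothelium expresses as well as fat, was above background on all arrays (6.47 and 7.36) and fell by 0.89 (adjusted p = 0.0160). ND_47 had the highest mean level of the 4 immunoproteasome genes (10.28) and of the 12 measured leukocyte markers. Values without it are given where it changed a call, and for some other genes whose difference it moved. Animal numbers up to 100 were carried by 7 ND animals but by 1 control, so number and group overlap largely. Array medians averaged 5.27 in ND and 5.18 in controls, and shifting each array to the same median moved the median difference over all genes from -0.02 to -0.11. Under that shift 17 members with positive differences of up to 0.08 became negative. With a term in the fit for numbers up to 100 (the animal number term) 19 members changed sign, and 25 did among animals numbered above Control_157; none of these was a called member.

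Most of the ubiquitin and proteasome genes differed little between ND and control kidneys. Of the 102 members 4 rose, 2 fell and 96 did not pass, so that 5.88% were called, against 9.99% of all genes measured (5.44% higher, 4.55% lower) and 7.13% of all probe sets. Those that rose were both PA28 genes, PSME2 and PSME1, together with the assembly chaperone PSMD10 and the proteasome inhibitor PSMF1. Those that fell were PSMD5, another assembly chaperone, and the F-box protein FBXO21. The largest differences belonged to 2 immunoproteasome subunits that missed the threshold, PSMB10 (1.11) and PSMB8 (1.10).

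At an unadjusted p under 0.05, 22 of 102 members differed, or 21.6%, against 30.1% of all genes. The median difference was -0.04 over the members and -0.02 over all genes. Differences larger than 0.3 in either direction were seen for 15 members, or 14.7%, against 26.5% of all genes. The values of the 2 groups failed to overlap in 0 of 102 members and in 40 of 6765 genes (0.591%). That share is too small to set the members apart. Members also varied less between animals of a group: their median SD was 0.22, against 0.28 over all genes, and that of the constitutive subunits was 0.17. At the other end were USP18 (SD 1.30), PSMB8 (0.83) and PSMB10 (0.78), which lay at the 99.2, 95.7 and 94.7 percentiles of SD among all genes.

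**Figure D1:**
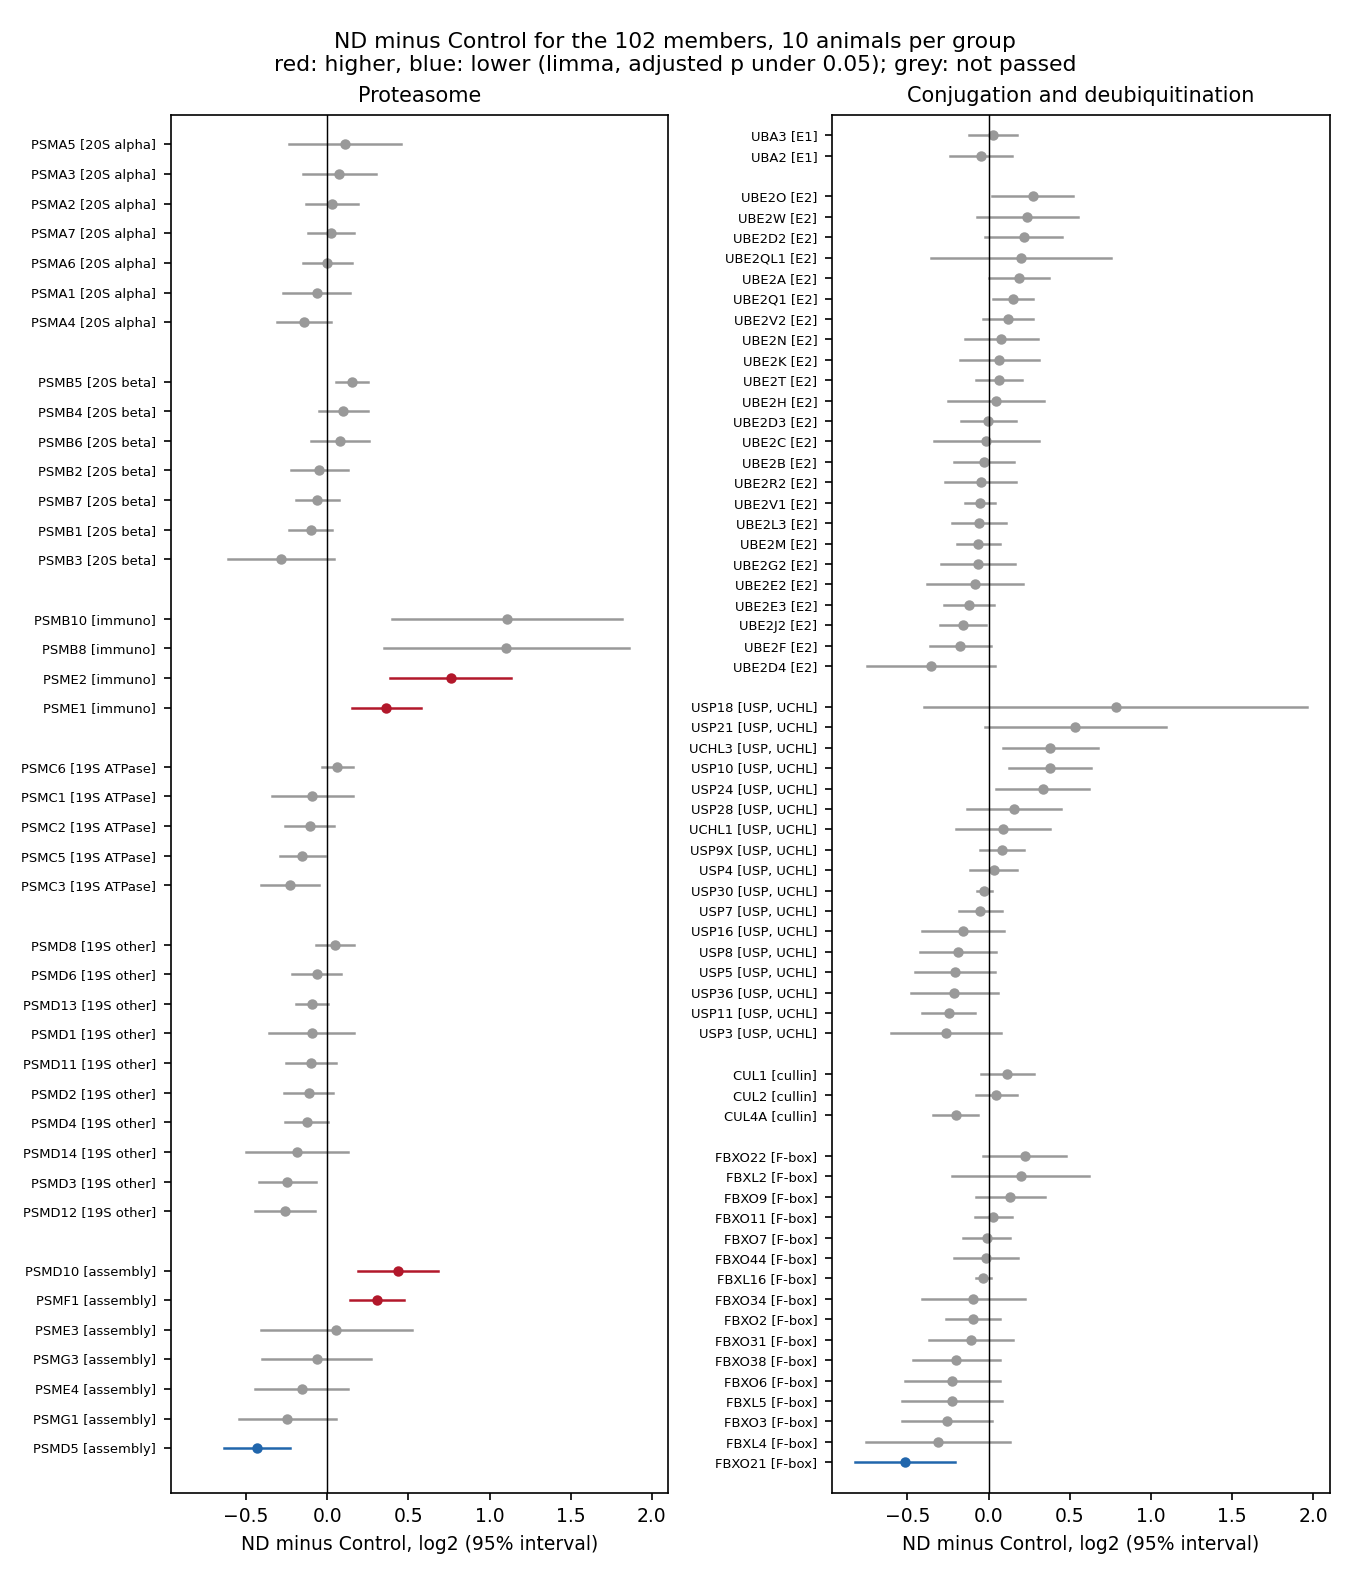
Difference ND minus control (log2, horizontal axis) with its 95% interval for each of the 102 members, with proteasome genes on the left and conjugation and deubiquitination genes on the right, grouped by role. The 4 immunoproteasome genes lie to the right of 0, while the 29 constitutive 20S and 19S subunits lie between -0.29 and 0.15.

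All 4 immunoproteasome genes had positive differences, with a median of 0.93 against -0.02 over all genes. Of the 4, 2 rose, where 5.44% of all genes did. PSME2, the beta subunit of PA28, read between 9.32 and 11.03 in ND (median 10.04) and between 8.86 and 9.69 in controls (median 9.34). All 10 ND animals lay above the control mean and 7 lay above every control. PSME2 rose 1.69-fold, by 0.76 ± 0.18 (SE), at an adjusted p of 0.0137 (limma, 10 animals per group).

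PSME1, the alpha subunit of PA28, read between 11.02 and 11.81 in ND (median 11.38) and between 10.78 and 11.46 in controls (median 10.96). Again all 10 ND animals exceeded the control mean, but only 4 exceeded every control. The rise was 1.29-fold, or 0.36 ± 0.10 (SE), at an adjusted p of 0.0364. The call was lost without ND_31, ND_47, ND_86, ND_92, Control_02, Control_184, Control_187, Control_190, Control_197 or Control_199 (adjusted p 0.0543 to 0.0674).

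PSMB8, which replaces the chymotrypsin-like subunit PSMB5 in the immunoproteasome, read between 5.46 and 8.40 in ND (median 5.95) and between 5.13 and 5.79 in controls (median 5.49). The ND animals spread widely: ND_47 (8.40), ND_22 (8.38), ND_01 (7.60) and ND_92 (6.91) were far above all controls, ND_31 (6.06) and ND_100 (5.84) were just above, and 4 fell inside the control range. The SD was 1.14 in ND and 0.27 in controls (n = 10 each). The difference was 1.10 ± 0.36 (SE; 95% interval 0.35 to 1.86), with an adjusted p of 0.0710.

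PSMB10, which replaces the trypsin-like subunit PSMB7, read between 6.79 and 9.90 in ND (median 7.83) and between 6.44 and 7.94 in controls (median 7.01). The same 4 animals were the highest, namely ND_47 (9.90), ND_92 (9.21), ND_22 (8.92) and ND_01 (8.75), and 5 of 10 ND animals lay above every control. Control_156 (7.94) and Control_157 (7.70) were the highest controls. The difference was 1.11 ± 0.34 (SE; 95% interval 0.40 to 1.82), with an adjusted p of 0.0531.

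Both subunits passed with a filter on dim probe sets (adjusted p 0.0444 for PSMB8 and 0.0328 for PSMB10), with array weights (0.0401 and 0.0384) and with arrays shifted to the same median (0.0490 and 0.0451). PSMB10 also passed with quantile normalization (0.0488) and with a variance trend (0.0486). PSMB8 passed without ND_193 or ND_198, and PSMB10 without ND_193, ND_194, ND_198 or Control_156 (adjusted p 0.0435 to 0.0494 and 0.0219 to 0.0488). In the other omissions of 1 animal, 18 of 20 for PSMB8 and 16 of 20 for PSMB10, they missed the threshold (adjusted p up to 0.115 and 0.0988). Without ND_47, the highest animal for both, the differences were 0.90 and 0.92 (adjusted p = 0.0998 and 0.0720).

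**Figure D2:**
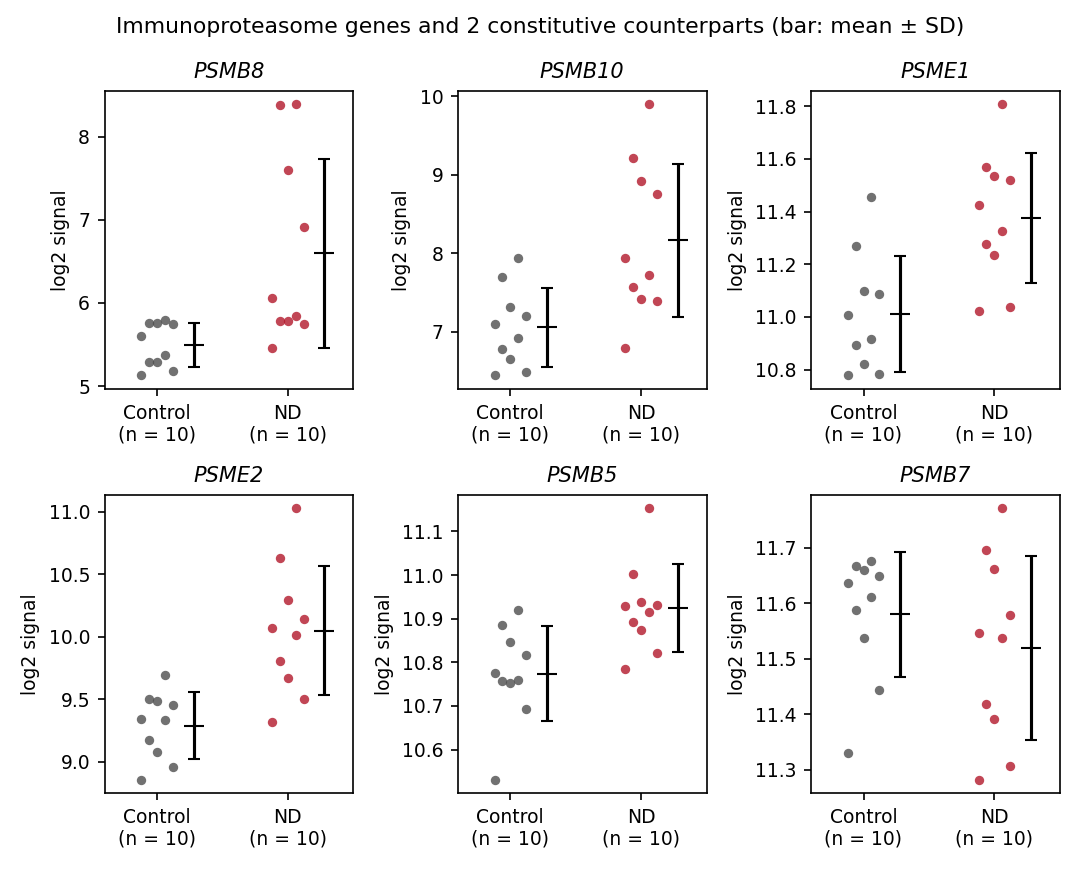
Log2 signal of each animal (vertical axes, different ranges) for PSMB8, PSMB10, PSME1 and PSME2 and for the constitutive counterparts PSMB5 and PSMB7, in 10 control (grey) and 10 ND (red) kidneys, with the mean and SD as a bar. In PSMB8, 4 ND animals stand between 6.91 and 8.40 while the controls stay between 5.13 and 5.79.

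The constitutive counterparts moved less. PSMB5 read between 10.78 and 11.15 in ND (median 10.92) and between 10.53 and 10.92 in controls (median 10.77), a difference of 0.15 ± 0.05 (SE) with an adjusted p of 0.0587. All 10 ND animals were above the control mean and 5 were above every control. With quantile normalization PSMB5 passed (adjusted p = 0.0421), as it did without ND_22 or Control_157 (0.0408 and 0.0428), while with arrays shifted to the same median its difference was 0.06. PSMB7 differed by -0.06 ± 0.06 (SE; 95% interval -0.19 to 0.07), and PSMB6, the counterpart of PSMB9, by 0.08 (95% interval -0.10 to 0.26).

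Within each array, the log2 difference between an immunoproteasome subunit and its constitutive counterpart is not affected by a shift of the whole array. For PSMB10 over PSMB7 this difference was 1.17 higher in ND (two-sided permutation test, adjusted p = 0.00432 over 2 pairs), with 9 of 10 ND animals above the control mean. For PSMB8 over PSMB5 it was 0.95 higher (permutation test, adjusted p = 0.0229), with 8 of 10 ND animals above the control mean. In each pair 5 ND animals lay above every control. This shows unequal change of the 2 subunits and not the level of either. The pair tests were adjusted over 2 pairs and the limma tests over 23999 probe sets, so their adjusted p-values cannot be compared. Unadjusted, the permutation p was 0.0229 for PSMB8 over PSMB5, beside a limma p of 0.00643 for PSMB8 alone. For PSMB10 over PSMB7 the permutation p was 0.00216, beside a limma p of 0.00396 for PSMB10 alone.

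The differences were smaller among animals with high numbers. The 7 ND animals numbered up to 100 read PSMB8 at 5.75 to 8.40 and PSMB10 at 7.57 to 9.90. The 3 ND animals numbered above Control_157 read PSMB8 at 5.46 to 5.78 and PSMB10 at 6.79 to 7.42, beside 5.13 to 5.79 and 6.44 to 7.32 in the 5 controls of that range, so that the groups overlapped. For PSME2 the 3 ND animals read 9.32 to 9.67 and the 5 controls 8.86 to 9.34, which overlapped slightly, and for PSME1 11.02 to 11.43 and 10.78 to 11.01, which did not overlap. Within that range of numbers the difference was 0.24 for PSMB8, 0.44 for PSMB10, 0.39 for PSME2 and 0.30 for PSME1, and none passed (adjusted p 0.296 to 0.595). With a term for animal number the differences were 0.59, 0.59, 0.45 and 0.26, and none passed either (0.303 to 0.657). The within-array pairs did not pass in that range (0.53 for PSMB10 over PSMB7, 0.12 for PSMB8 over PSMB5; exact permutation test, adjusted p 0.286 and 0.643).

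Genes of the interferon gamma response and of peptide presentation that share this setting were mixed: of 9 measured, 3 rose, none fell and 6 did not pass, with a median difference of 0.23. TAP1, which carries the peptides made by the proteasome into the endoplasmic reticulum, read 8.86 to 10.47 in ND and 8.06 to 8.64 in controls, without overlap. It rose by 1.12 ± 0.19 (SE; adjusted p = 0.00161), and by 0.35 with all its probe sets averaged (adjusted p = 0.00223). IRF1, a transcription factor that acts on immunoproteasome genes, rose by 1.04 ± 0.23 (SE; adjusted p = 0.00855), and GBP1, an interferon-induced GTPase, by 1.72 ± 0.48 (SE; adjusted p = 0.0350). ND_22, ND_47 and ND_01 had the 3 highest levels of TAP1 (10.47, 10.36 and 10.17), and ND_92 the highest of GBP1 (11.69). The MHC class I light chain B2M (0.23, adjusted p = 0.0940) and the peptide loading factor TAPBP (0.52, adjusted p = 0.105) did not pass, and IFNG read at background on all arrays. The GBP1 call depended on 10 single animals, 4 of the ND group (ND_92, ND_47, ND_22 and ND_01) and 6 controls (Control_197, Control_190, Control_187, Control_184, Control_155 and Control_134), without any of which it missed the threshold (adjusted p 0.0512 to 0.0651), and it did so with averaged probe sets (0.0631). With the animal number term TAP1, IRF1 and GBP1 differed by 0.78, 0.63 and 0.999 and none passed (adjusted p 0.0645 to 0.479), nor did they among animals numbered above Control_157 (0.69, 0.95 and 1.37; 0.133 to 0.188).

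Leukocytes express the immunoproteasome constitutively, and leukocyte markers moved with it in part. Of 12 measured markers 6 rose, 2 fell and 4 did not pass. Their mean log2 level ran from 5.17 to 6.47 in ND and from 5.17 to 5.58 in controls, and ND_47 (6.47), ND_22 (6.46), ND_92 (6.11), ND_31 (5.97) and ND_01 (5.91) were the highest animals. Those that rose were GNLY (1.49), LCK (1.13), LAPTM5 (1.11), CD3E (0.91), CTSS (0.85) and ITGB2 (0.83). CD3E was above background in 5 ND animals and 0 controls. CD163 fell by 2.04 and CD14 by 0.54. The pan-leukocyte marker PTPRC read not far above background (3.47 in ND, 3.38 in controls) and differed by 0.10 (adjusted p = 0.482). CD79B read at background on all arrays. The part of leukocytes in the immunoproteasome result was not tested, and in whole tissue more cells of a type and more RNA per cell cannot be told apart.

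The constitutive proteasome subunits stayed within a narrow range. None of the 29 passed with limma (10 animals per group), and 5 had an unadjusted p under 0.05. Their differences ran from -0.29 to 0.15 with a median of -0.09, against -0.02 over all genes, and 19 of 29 were negative, or 65.5%, against 54.3% of all genes. Their 95% intervals reached from -0.61 at the lowest to 0.45 at the highest.

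The 7 alpha ring subunits, which form the gate of the core, differed by -0.15 to 0.11. PSMA4 was the lowest, reading 11.40 to 11.95 in ND (median 11.81) and 11.51 to 12.23 in controls (median 11.90), at -0.15 with an adjusted p of 0.217. PSMA5 was the highest at 0.11, with ND_47 at the top of its ND range of 9.83 to 11.49, and without that animal its difference was -0.01 (adjusted p = 0.966). The 7 constitutive beta ring subunits differed by -0.29 (PSMB3, adjusted p = 0.214) to 0.15 (PSMB5). Without ND_47 the difference of PSMB3 was -0.39 (adjusted p = 0.0742).

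The 19S regulator leaned downwards without a call. Of 5 ATPase subunits, which unfold the substrate, 4 had negative differences, and of 10 measured non-ATPase subunits 9 did, with medians of -0.11 in both groups. PSMD12 read 9.21 to 9.87 in ND (median 9.37) and 9.32 to 10.08 in controls (median 9.66), a difference of -0.26 ± 0.09 (SE; adjusted p = 0.0770). Only ND_47 exceeded the control mean, and without it the difference was -0.31 and passed (adjusted p = 0.0190). Without Control_134 it passed too (0.0358). PSMD3, a scaffold of the lid, differed by -0.25 (adjusted p = 0.0809), and 9 of 10 ND animals lay below the control mean.

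Among the ATPases PSMC3 read 10.25 to 10.80 in ND (median 10.57) and 10.39 to 11.08 in controls (median 10.75), a difference of -0.23 ± 0.09 (SE; adjusted p = 0.101). It passed without Control_199 (0.0365). PSMC5 differed by -0.15 (adjusted p = 0.138), also with 9 of 10 ND animals below the control mean. For PSMC2 the brightest probe set differed by -0.11 (adjusted p = 0.293), while one of its dimmer probe sets fell by 0.39 on the log2 scale (adjusted p = 0.0131) and another differed by -0.22 (adjusted p = 0.164). The ubiquitin-cleaving lid subunit PSMD14 had a wide ND range of 9.59 to 11.18, with ND_47 as its highest animal, and differed by -0.19 (adjusted p = 0.384), or by -0.30 without that animal (adjusted p = 0.0943).

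The outcome for the constitutive subunits depended on the scaling of the arrays. With arrays shifted to the same median, 10 of the 29 passed, all lower: PSMA4, PSMB1, PSMC2, PSMC3, PSMC5, PSMD2, PSMD3, PSMD4, PSMD12 and PSMD13. Their median difference was then -0.18, beside -0.11 over all genes. That setting called 23 of 102 members (6 higher, 17 lower), or 22.5%, against 30.3% of all genes (404 higher, 1644 lower). With quantile normalization 1 of the 29 passed, PSMB5, and with array weights 2, PSMD12 and PSMD3.

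**Figure D3:**
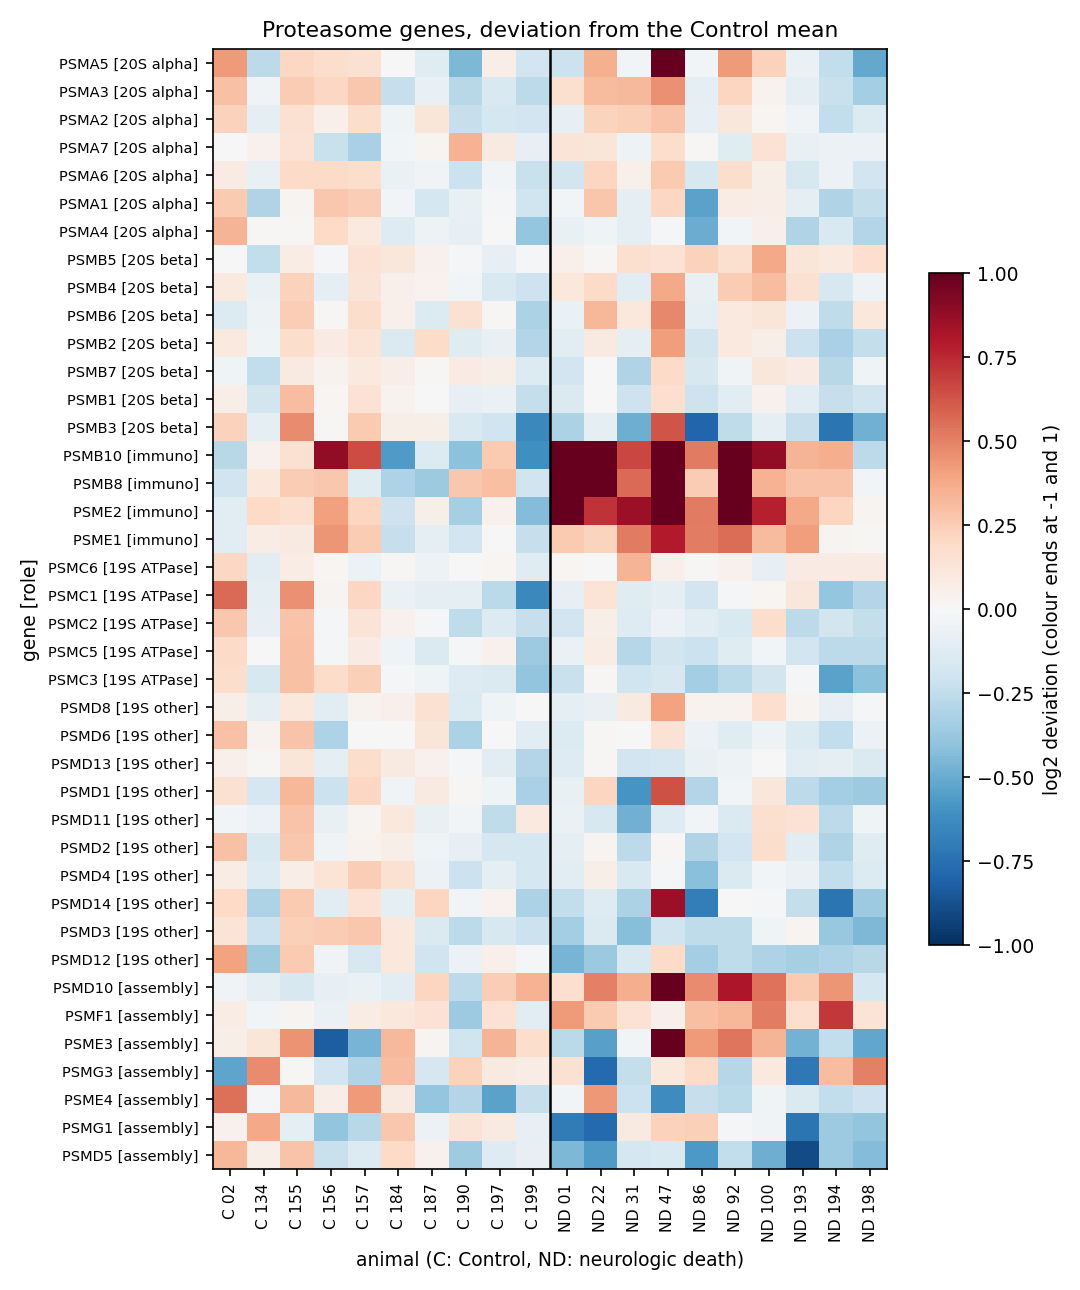
Deviation of each animal from the control mean (log2, colour) for 40 proteasome genes in rows, grouped by role, in 10 control and 10 ND kidneys in columns. The 4 immunoproteasome rows are red in most ND animals. PSMB8 and PSMB10 are strongest in ND_01, ND_22, ND_47 and ND_92, and PSME1 and PSME2 in ND_47 and ND_92. Most 19S rows are pale blue in most ND animals, but those of PSMC6 and PSMD8 are not. The ND_47 column is red for PSMA5, PSMB3, PSMD1 and PSMD14, and also for the regulators PSME3 and PSMD10.

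Assembly factors and other regulators held 3 of the 6 called members, 2 of which rose and 1 of which fell among 7 measured. That is 42.9% of the 7, against 9.99% of all genes, and the role as a set was not tested. PSMD5, a chaperone that binds the ATPase ring before the 19S base is complete, read 8.56 to 9.30 in ND (median 9.01) and 9.10 to 9.79 in controls (median 9.44). All 10 ND animals lay below the control mean and 7 lay below every control. It fell by 0.43 on the log2 scale (± 0.10, SE), so that controls were 1.35-fold higher, with an adjusted p of 0.0100. The call held without each animal in turn (0.00652 to 0.0208), as did those of PSME2 (0.00551 to 0.0276) and PSMF1 (0.0139 to 0.0396). The PSMD5 call also held with the animal number term (-0.58, adjusted p = 0.0104), as for no other member. Among animals numbered above Control_157 PSMD5 differed by -0.50 (adjusted p = 0.257), with ND at 8.56 to 9.09 and controls at 9.10 to 9.66.

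PSMD10, or gankyrin, another base chaperone that also binds MDM2 and the retinoblastoma protein, moved the other way. It read 8.03 to 9.21 in ND (median 8.66) and 7.95 to 8.56 in controls (median 8.13), and 7 ND animals lay above every control. The rise was 1.35-fold, or 0.44 ± 0.12 (SE), at an adjusted p of 0.0285. ND_198 (8.03) was below the control mean, and ND_47 (9.21) and ND_92 (9.01) were the highest. The call was lost without ND_92, Control_155 or Control_190 (adjusted p 0.0515 to 0.0557), with array weights (0.0789) and with the animal number term (0.383). Above Control_157 the difference was 0.09 (adjusted p = 0.814).

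PSMF1, also known as PI31 and first described as an inhibitor of the 20S core, read 7.60 to 8.26 in ND (median 7.83) and 7.18 to 7.69 in controls (median 7.59). All 10 ND animals exceeded the control mean and 8 exceeded every control. The rise was 1.24-fold, or 0.31 ± 0.08 (SE), at an adjusted p of 0.0223, and it held without each animal in turn. A dimmer probe set of PSMF1 differed by 0.12 (adjusted p = 0.665), and the average of both by 0.21 (adjusted p = 0.177). With the animal number term the difference was 0.31 (adjusted p = 0.135).

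The other regulators did not pass. PSME3, the nuclear relative of PA28, differed by 0.06 (95% interval -0.41 to 0.52), or by -0.09 without ND_47, and PSME4, the PA200 activator, by -0.16 (95% interval -0.45 to 0.13). The core assembly chaperones PSMG1 and PSMG3 differed by -0.25 (adjusted p = 0.237) and -0.06 (adjusted p = 0.791). Whether PSME3 differed in response from PSME1 and PSME2 was not tested.

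**Figure D4:**
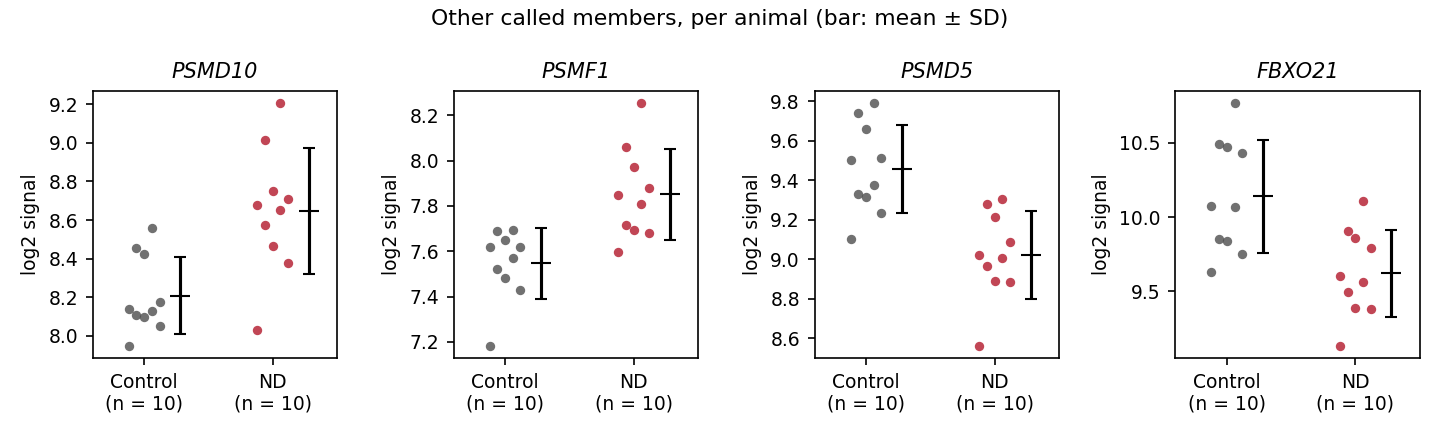
Log2 signal of each animal (vertical axes, different ranges) for the 4 called members outside the immunoproteasome, PSMD10, PSMF1, PSMD5 and FBXO21, in 10 control (grey) and 10 ND (red) kidneys, with the mean and SD as a bar. The groups overlap in every panel, with 7 ND animals below every control for PSMD5 and 6 for FBXO21.

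None of the 24 E2 conjugating enzymes passed with limma, and 4 had an unadjusted p under 0.05. Their differences ran from -0.36 to 0.27 with a median of -0.01. UBE2Q1 had the smallest p, reading 10.96 to 11.39 in ND (median 11.14) and 10.80 to 11.17 in controls (median 11.03), a difference of 0.15 ± 0.06 (SE; adjusted p = 0.115). Its second probe set differed by 0.17 (adjusted p = 0.0948).

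The largest positive E2 difference was that of UBE2O, a hybrid of E2 and E3 enzyme, at 0.27 (adjusted p = 0.142), with all 10 ND animals above the control mean. The largest negative one was that of UBE2D4 at -0.36 (adjusted p = 0.203), with ND_47 (3.72) as its lowest animal and a difference of -0.21 without it. UBE2A, which acts on histones and in DNA repair, differed by 0.19 (adjusted p = 0.166), and its dimmer probe set by 0.33 (adjusted p = 0.0551). The E2 enzymes of the ubiquitin-like protein NEDD8 did not pass: UBE2M differed by -0.06 (95% interval -0.20 to 0.07) and UBE2F by -0.17 (95% interval -0.36 to 0.01). UBE2N, which builds lysine-63 chains in inflammatory signalling, differed by 0.08 (95% interval -0.15 to 0.31), or by -0.01 without ND_47, and UBE2L3, a partner of several E3 families, by -0.06 (95% interval -0.23 to 0.11).

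The 2 measured E1 subunits serve ubiquitin-like proteins. UBA2, of the SUMO E1, read 9.92 to 10.91 in ND (median 10.14) and 10.09 to 10.48 in controls (median 10.20), and differed by -0.05 (95% interval -0.24 to 0.14). ND_47 was its highest animal, and without it the difference was -0.13. UBA3, of the NEDD8 E1, differed by 0.03 (95% interval -0.12 to 0.17), while a dimmer one of its probe sets differed by 0.63 (adjusted p = 0.126).

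None of the 17 deubiquitinases passed with limma, and 4 had an unadjusted p under 0.05. Their differences ran from -0.26 to 0.78 with a median of 0.03. USP11 had the smallest p, reading 7.37 to 7.85 in ND (median 7.64) and 7.43 to 8.29 in controls (median 7.92). All 10 ND animals lay below the control mean, at a difference of -0.25 ± 0.08 (SE; adjusted p = 0.0620), and without Control_02 it passed (adjusted p = 0.00833).

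USP10, which stabilises p53 and the CFTR channel, read 10.55 to 11.46 in ND (median 11.29) and 10.21 to 11.17 in controls (median 10.88), with 6 ND animals above every control. The difference was 0.38 ± 0.12 (SE; adjusted p = 0.0635), and its dimmer probe set differed by 0.09 (adjusted p = 0.655). UCHL3, a hydrolase of small ubiquitin adducts, differed by 0.38 (adjusted p = 0.102), with all 10 ND animals above the control mean, and USP24 by 0.33 (adjusted p = 0.125). USP21 differed by 0.54 (adjusted p = 0.185), with controls spread from 4.92 to 7.30 around all ND values. The ubiquitous USP7, a regulator of MDM2, and USP9X differed by -0.05 (95% interval -0.18 to 0.08) and 0.08 (95% interval -0.05 to 0.22).

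USP18, an interferon-induced protease that removes ISG15 and dampens interferon signalling, varied more than any other member. It read 3.21 to 7.77 in ND (median 5.37) and 3.53 to 7.87 in controls (median 4.42). The highest animals were Control_134 (7.87), ND_31 (7.77) and ND_47 (6.93), and no ND animal lay above every control. The difference was 0.78 ± 0.56 (SE; 95% interval -0.40 to 1.96), with an adjusted p of 0.329. Control_134 was unremarkable for PSMB8 (5.60) and PSMB10 (7.10).

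Cullin scaffolds and F-box substrate receptors held 1 call, or 6.25% of the 16 F-box genes and 0% of the 3 cullins, against 9.99% of all genes. FBXO21, the receptor of a cullin 1 ligase, read 9.13 to 10.11 in ND (median 9.58) and 9.63 to 10.77 in controls (median 10.07). All 10 ND animals lay below the control mean and 6 below every control. It fell by 0.52 on the log2 scale (± 0.15, SE), so that controls were 1.43-fold higher, with an adjusted p of 0.0401.

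Of 5 probe sets for FBXO21, 3 fell, the others by 0.61 and 0.69 (adjusted p = 0.0171 and 0.0498). A further one differed by -0.37 (adjusted p = 0.188), and the dimmest read at background on all arrays. The call of the brightest was lost without ND_01, ND_31, ND_47, ND_92, ND_100, ND_194, ND_198, Control_02, Control_134, Control_155, Control_156, Control_157 or Control_197 (adjusted p 0.0502 to 0.0730). With the animal number term it was -0.58 (adjusted p = 0.132), and above Control_157 -0.21 (adjusted p = 0.545).

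The other 15 F-box genes did not pass, and 12 of the 16 had negative differences. FBXL4, a mitochondrial F-box protein, differed by -0.31 (adjusted p = 0.305), with ND_47 (5.69) as its lowest animal. Its difference was -0.14 without ND_47, 0.01 with the animal number term and 0.13 among animals numbered above Control_157. FBXO3 differed by -0.26 (adjusted p = 0.193) and FBXL5, the iron sensor that controls IRP2, by -0.22 (adjusted p = 0.288). FBXO22 had the highest difference at 0.22 (adjusted p = 0.217), and FBXO7 differed by -0.01 (95% interval -0.15 to 0.13). Of the cullins, CUL4A read 8.85 to 9.53 in ND (median 9.25) and 9.33 to 9.62 in controls (median 9.42), with 6 ND animals below every control. Its difference was -0.20 ± 0.07 (SE; adjusted p = 0.0727), and it passed without ND_01 (0.0319). CUL1, the scaffold for F-box proteins, differed by 0.12 (95% interval -0.04 to 0.28) and CUL2 by 0.05 (95% interval -0.08 to 0.17).

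Several members had more than 1 probe set. For 30 members there were 45 dimmer probe sets, of which 29 had the sign of the brightest, 3 were called (2 of FBXO21 and 1 of PSMC2, all lower) and 11 read at background on all arrays. By their brightest probe set, FBXL16 and USP30 were at background on all arrays, so nothing can be said of their difference. UBE2C (5 of 20 arrays above background), FBXO2, FBXO34, UBE2QL1 and UCHL1 were above it on some arrays only, and the other 95 members on all.

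Other genes of the ubiquitin system that were not members were read from lists by role. Of 9 measured ubiquitin and ubiquitin-like genes 1 rose: UBD, or FAT10, a ubiquitin-like modifier induced by inflammatory cytokines that targets proteins to the proteasome. UBD read 7.66 to 10.31 in ND (median 8.54) and 5.39 to 7.89 in controls (median 6.99), with 8 ND animals above every control. Its rise was 3.47-fold, or 1.80 ± 0.34 (SE), at an adjusted p of 0.00370, and it held without each animal in turn. It differed by 1.40 with the animal number term (adjusted p = 0.0999) and by 1.27 among animals numbered above Control_157 (adjusted p = 0.103). The polyubiquitin gene UBB (0.08, 95% interval -0.03 to 0.18) and the ubiquitin fusion gene RPS27A (0.09, adjusted p = 0.163) did not pass, nor did ISG15 (1.41 ± 0.57, SE; adjusted p = 0.123).

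None of the 6 measured genes of proteasome maturation and shuttling passed, with a median difference of 0.001, nor did any of 13 cullin cofactors and COP9 signalosome subunits (median -0.02). At an unadjusted p under 0.05 there were 1 and 4. The segregase VCP, which extracts proteins for degradation, differed by -0.01 (adjusted p = 0.904). Of 16 other E3 ligases 2 rose, CBLB, a brake on T cell receptor signalling (0.74 ± 0.16, SE; adjusted p = 0.00903), and ITCH, of the NEDD4 family (0.27 ± 0.07, SE; adjusted p = 0.0232). ITCH missed the threshold with arrays shifted to the same median (0.19, adjusted p = 0.0672). Neither passed with the animal number term (CBLB 0.80, adjusted p = 0.0561; ITCH 0.27, adjusted p = 0.156) or among animals numbered above Control_157 (0.78 and 0.18; adjusted p 0.432 and 0.358).

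Of 12 other deubiquitinases CYLD, a negative regulator of NF-kB, rose by 0.29 ± 0.08 (SE; adjusted p = 0.0343), and BRCC3, which cleaves lysine-63 chains, fell by 0.42 ± 0.12 (SE; adjusted p = 0.0307). CYLD lost its call with arrays shifted to the same median (0.20, adjusted p = 0.0801), with quantile normalization (0.0592), with a variance trend (0.0725) and with array weights (0.0548). It also lost it without ND_22, ND_86, ND_92, ND_100, ND_198, Control_155, Control_156, Control_187 or Control_190 (adjusted p 0.0501 to 0.0641). BRCC3 lost it without ND_86, ND_92, Control_184, Control_187, Control_190 or Control_197 (0.0501 to 0.0589). Neither passed with the animal number term (CYLD 0.26, adjusted p = 0.230; BRCC3 -0.34, adjusted p = 0.275) or among animals numbered above Control_157 (0.32 and -0.48; adjusted p 0.423 and 0.152).

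Across the 6 called members, PSMD5 alone kept its call with the animal number term, and the other 5 had adjusted p-values of 0.132 to 0.383, where 2.78% of all genes passed. With the 3 ND animals and 5 controls numbered above Control_157, no member passed with limma, where 0.325% of all genes passed. Each of the 6 called members kept the sign of its difference there. An unadjusted p under 0.05 was seen for 16 members, without a share of all genes to set it against. Control_02 was the only control numbered up to 100.

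Under the other settings, all on the same arrays, the members stayed below the share of all genes called. A filter on dim probe sets called 9 of 99 members (9.09%) beside 14.1% of all genes, with PSMB8, PSMB10 and USP10 added. A variance trend called 7 (6.86%) beside 9.06%, and quantile normalization 8 (7.84%) beside 11.2%. Array weights called 9 (8.82%) beside 11.5%, and averaged probe sets 5 (4.90%) beside 10.1%. Without ND_47 there were 5 (4.90%) beside 10%, as PSME1 and FBXO21 dropped out and PSMD12 came in. A test against a minimum fold of 1.2 called 0 members with limma, with 4 at an unadjusted p under 0.05. It called 1.15% of all genes, a share too small to set the members apart. No unadjusted share of all genes is given here beside the 4.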

How the data were processed

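Kidney RNA of 20 pigs (10 ND, 10 control; group and animal number from the titles) was labelled from 250 ng per the labels' protocols. The labels speak of 2 specimens per animal but hold 1 array per animal number, so p-values measure the spread between these arrays. The authors deposited a table of probe set values, taken as log2 from their range (0.88 to 16.2). Background correction, summarization and normalization by the authors are not stated in the labels or files used here, and they can move the balance of rises and falls.

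Of 24123 probe sets 124 controls were left out. The platform annotation gave 1 symbol to 10069 of the rest, several to 198 and none to 13732, and 0 symbols changed through Entrez IDs. 6 probe sets whose several symbols begin with a member's were not used. Background was the upper end (2.79) of 23 tag and tryptophan control probe sets.

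Groups were compared with limma 3.58.1 (lmFit, eBayes) in R 4.3.3, tested on simulated data. The 2 within-array pairs used two-sided permutation tests (100000 resamples, scipy 1.17.1), exact in the subset. Members and gene lists were chosen with earlier results of these data known. The rule named the immunoproteasome genes, up to 12 called rises and 12 falls, the smallest p in each role, and up to 3 called genes per list of other pathway genes. Other genes named were chosen after their values were seen. Alternatives covered scaling, a filter (above background on at least 10 arrays), the variance trend, array weights, probe set means, a term for animal numbers up to 100, animals numbered above Control_157, a test against a 1.2-fold minimum, and omission of each animal.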

Additional observations from a re-analysis of the deposited data

Results flagged for a closer look

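In 48 groups of 10 animals examined (24 named genes), 1 animal stood apart from the others in 7, by the ratio of its gap to the next animal to the range of the group (Dixon), where chance gives about 1 in 20 groups. ND_47 was that animal in 4 of the 7. It was the highest ND animal for PSMD12 (9.87 against 9.53 for the next; ratio 0.513) and UBA2 (10.91 against 10.24; 0.674). It was the lowest ND animal for USP11 (7.37 against 7.60; 0.488) and ITCH (9.43 against 9.76; 0.484). Among controls, Control_190 was low for PSMF1 (7.18 against 7.43; 0.487), Control_134 for UBD (5.39 against 6.71; 0.527) and Control_184 for TAP1 (8.06 against 8.34; 0.482).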

How the results depend on the processing

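No paired analysis was possible because ND and control animals share no numbers. None of the 24 genes named by rule changed sign under any setting tried. Other members did, such as FBXL4 with the animal number term and PSMA5, PSME3 and UBE2N without ND_47. Of the 102 members 6 were called (4 higher, 2 lower), with 2 of 4 immunoproteasome genes and 0 of 29 constitutive subunits. With arrays shifted to the same median these became 23 called, 6 higher and 17 lower, with 4 immunoproteasome and 10 constitutive. The balance turned from rises to falls beside a shift of all genes. Over all genes it went from 368 higher and 308 lower to 404 higher and 1644 lower. Quantile normalization gave 1 constitutive subunit. The dim filter, which tested fewer probe sets, gave 7 higher and 4 immunoproteasome genes. Array weights gave 4 lower, 4 immunoproteasome and 2 constitutive. The animal number term gave 1 called (0 higher, 1 lower) and 0 immunoproteasome genes. Animals numbered above Control_157, with fewer samples, gave 0 called, 0 higher, 0 lower and 0 immunoproteasome genes, with 16 members at an unadjusted p under 0.05 (limma), and within-array pair differences of 0.12 (PSMB8 and PSMB5) and 0.53 (PSMB10 and PSMB7). Without ND_47 there were 1 immunoproteasome gene and 1 constitutive subunit. A minimum fold of 1.2, a stricter test, gave 0 called, 0 higher, 0 lower and 0 immunoproteasome genes with limma, and 4 members at an unadjusted p under 0.05. The unadjusted counts of 16 and 4 members have no share of all genes beside them. Where no reason is given, the cause was not tested. Leaving out each animal in turn gave 3 (without ND_92) to 9 (without ND_193 or Control_199) called, 2 to 6 higher, 1 to 5 lower, 1 to 4 immunoproteasome and 0 to 3 constitutive. The median difference of the constitutive subunits then stayed between -0.11 and -0.06, and the pairs between 0.74 and 1.08 and between 1.005 and 1.32. Probe sets at background, FBXL16 and USP30, limit what can be said of those genes.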
